A study of Mus musculus with 4 samples.

Results

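Myh3, Actc1 and Myod1 are 3 genes of embryonic striated muscle that appear in tables of RNA levels from the fetal mouse testis, an organ with no skeletal muscle of its own. They were selected on the measured values of these same tables, as the rows carrying those 3 gene names, out of 235 named genes and 382 transcripts that the tables hold in all. The samples were gonads of wildtype CD1 embryos at E13.5, microdissected and parted from the mesonephros. Of the 4 groups, each represented by 1 library, Control is labelled with no treatment and taken to be the tables' EtOH, the name left after the drug names were matched, ACE+ACE is labelled acetaminophen, ASP+ACE aspirin with acetaminophen, and IBU+ACE ibuprofen with acetaminophen. The study addressed what these analgesics, given in the womb, do to the developing testis; the labels read here state no dose, no day of exposure and no number of embryos behind a library.

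Skeletal muscle forms when precursor cells switch on transcription factors of the MyoD family, fuse into fibres and fill them with contractile filaments. Myod1 encodes MyoD itself, which binds DNA at E-boxes and turns on muscle genes. Myh3 encodes the embryonic myosin heavy chain, the motor protein of the thick filament in the earliest fibres, and Actc1 encodes cardiac alpha-actin, a thin filament protein of the heart that embryonic skeletal muscle also makes. In bulk RNA from a whole organ, fewer cells of a type and less RNA per cell cannot be told apart.

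Levels are in FPKM, the fragments of a transcript divided by its length in kilobases and scaled to 1000000 mapped fragments. The 6 deposited tables compare the libraries in pairs and hold only transcripts that the authors called different, and the authors' deposited table gives every row the same p-value, 5e-05, and the same q-value, 0.0310. A gene missing from a table therefore had no call there, which does not make its levels equal. "Rose" and "fell" are used only of rows in those tables. Each group being 1 library, a call here is a difference between 2 libraries, and whether it would recur in other litters is not known.

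The RefSeq promoter table (GRCm38.p6) matched 2 of the 3 genes, and the 250 bases before their annotated starts are shown because both genes were higher in IBU+ACE than in ACE+ACE and ASP+ACE. Capitals mark matches, on either strand, to the E-box CANNTG, the TATA box TATAAA, the CArG box (the site of serum response factor) or the MEF2 motif. The Myh3 stretch lies at chr11:67078050-67078299 on the plus strand and the Actc1 stretch at chr2:114052876-114053125 on the minus strand.
Myh3: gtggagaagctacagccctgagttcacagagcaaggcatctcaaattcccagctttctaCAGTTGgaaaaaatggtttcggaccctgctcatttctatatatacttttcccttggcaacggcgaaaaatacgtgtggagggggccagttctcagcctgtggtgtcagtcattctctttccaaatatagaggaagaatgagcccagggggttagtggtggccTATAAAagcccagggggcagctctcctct
Actc1: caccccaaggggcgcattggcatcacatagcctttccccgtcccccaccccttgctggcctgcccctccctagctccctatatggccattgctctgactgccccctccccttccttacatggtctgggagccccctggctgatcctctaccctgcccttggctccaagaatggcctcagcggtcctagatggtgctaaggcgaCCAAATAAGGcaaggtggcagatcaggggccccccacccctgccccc
Myh3 had 1 E-box, 191 to 186 bases before the start, and 1 TATA box, 29 to 24 bases before it. Actc1 had 1 CArG box, 47 to 38 bases before the start, and none of the other motifs in that window. The letters TATAAA stood at bases 34 to 39 after its annotated start, in a 50-base window where 1.34% of all promoters hold them. Over the 32851 promoters of the table, 66.2% held an E-box in the same 250 bases, 12.4% a TATA box, 1.47% a CArG box and 2.92% a MEF2 motif. The E-box is thus in most promoters and the CArG box in few; a match is a match of letters only. None of the matches overlapped another. The RefSeq start of Myh3 is also the GENCODE start, but that of Actc1 lies 673 bases downstream of the GENCODE start, so the Actc1 stretch falls inside the gene as GENCODE draws it.

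The deposited locus of Myh3 (chromosome 11, 67078300 to 67102291, GRCm38) equals the GENCODE gene exactly and also holds the microRNA gene Mir6923. The locus of Myod1 (chromosome 7, 46376474 to 46379092) starts with the GENCODE gene and overlaps no other. Actc1 differs from them: its locus (chromosome 2, 114009601 to 114068324) is 58724 bp long, of which the GENCODE gene is 6267 bp, and it takes in Gjd2, a connexin gene, on the same strand, and A530058N18Rik and C130080G10Rik on the other. No source used here says how reads were shared out among the transcripts of that locus, so the Actc1 value may hold reads of its neighbours.

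Myh3 was the member with a value in every library. Its level in Control was 4.46 FPKM and in IBU+ACE 4.54 FPKM, against 1.85 FPKM in ACE+ACE and 2.41 FPKM in ASP+ACE. The Control and IBU+ACE libraries stood high and close together, and ACE+ACE and ASP+ACE stood low. Against Control, Myh3 fell 2.41-fold in ACE+ACE and 1.85-fold in ASP+ACE, for which the authors' deposited table gives log2 fold changes of -1.27 and -0.89. It rose 2.45-fold from ACE+ACE to IBU+ACE and 1.88-fold from ASP+ACE to IBU+ACE, with log2 fold changes that the authors' deposited table puts at 1.29 and 0.91. These 4 comparisons share libraries and are not separate evidence.

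The remaining pairs of libraries had no call for Myh3. IBU+ACE over Control was 1.02-fold, a log2 of 0.02, and ASP+ACE over ACE+ACE was 1.304-fold, a log2 of 0.38. Both ratios were smaller than every listed one in the same tables, where the smallest absolute log2 fold change was 0.52 and 0.67. In the order of its levels, IBU+ACE, Control, ASP+ACE, ACE+ACE, only the step from Control down to ASP+ACE joins neighbours that a table lists.

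**Figure D1:**
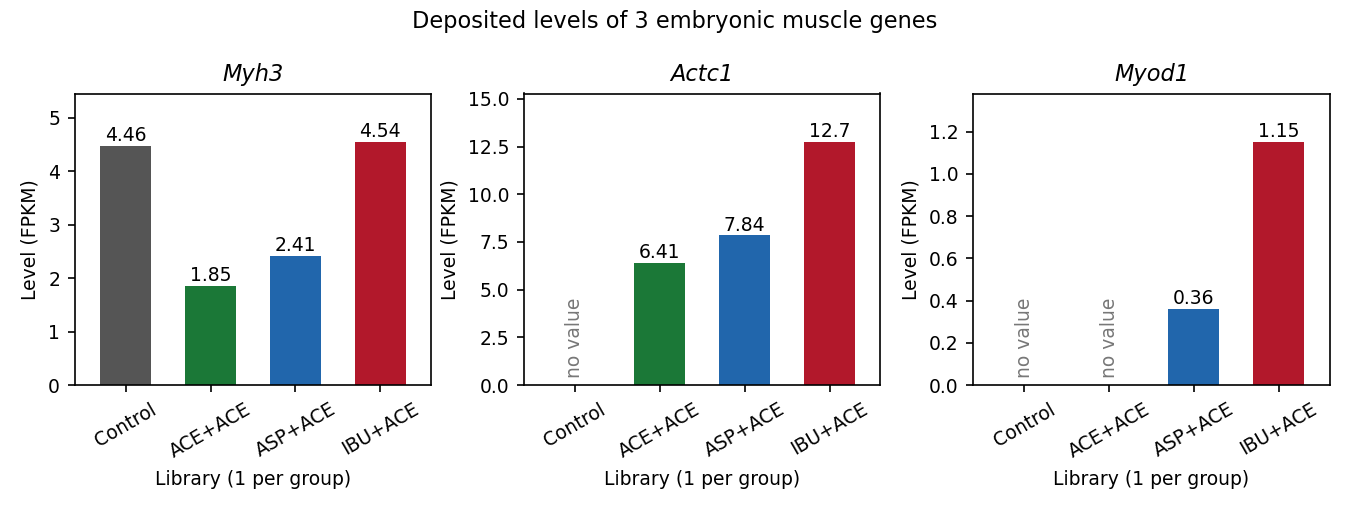
Deposited level in FPKM (vertical axis, linear from 0, a separate scale for each gene) of Myh3, Actc1 and Myod1 in the 4 libraries, 1 bar per library with no error bar since each group has 1 library. Myh3 is near 4.5 in Control and IBU+ACE and at 1.85 and 2.41 in ACE+ACE and ASP+ACE; "no value" marks a library whose level no table gives.

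Actc1 had values in the 3 exposed libraries. It was lowest in ACE+ACE at 6.41 FPKM, little higher in ASP+ACE at 7.84 FPKM and highest in IBU+ACE at 12.7 FPKM. IBU+ACE was the high library, as for Myh3, while the Control level is not in any table. Actc1 rose 1.99-fold from ACE+ACE and 1.62-fold from ASP+ACE to IBU+ACE, and the authors' deposited table has 0.99 and 0.70 as the log2 fold changes. ACE+ACE and ASP+ACE differed by 1.22-fold, a log2 of 0.29, with no call. No comparison with Control lists Actc1.

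Myod1 appears in 1 table alone. Its level was 0.360 FPKM in ASP+ACE and 1.15 FPKM in IBU+ACE, a rise of 3.19-fold, or 1.67 on the log2 scale of the authors' deposited table. Neither its Control nor its ACE+ACE level can be read, so whether it shares the low ACE+ACE value of Myh3 and Actc1 is not known. Every call of Actc1 and Myod1 rests on the IBU+ACE library; the calls of Myh3 against Control do not use it.

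FPKM is scaled to length, so the members can be set side by side within a library. The Actc1 level was 3.46 times that of Myh3 in ACE+ACE, 3.25 times in ASP+ACE and 2.80 times in IBU+ACE, with the doubt about its locus named above. The Myod1 level was 0.149 times that of Myh3 in ASP+ACE and 0.253 times in IBU+ACE, so the regulator was the lowest of the 3 in both libraries. Over the longest GENCODE transcript of each gene (6031 nt for Myh3, 1473 nt for Actc1, 1861 nt for Myod1), these levels come to about 11.2 to 27.4 fragments in every 1000000 mapped for Myh3, 9.45 to 18.8 for Actc1, and 0.671 and 2.14 for Myod1. The total number of mapped fragments is unknown here, so no counting interval can be given; on this estimate Myod1 has the fewest fragments behind its ratio.

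Counted by comparison, 1 of the 3 members, Myh3, was lower in ACE+ACE than in Control, where 13.1% of the 382 transcripts were called lower. The same gene was lower in ASP+ACE than in Control, where 7.59% were called lower. Between ACE+ACE and IBU+ACE 2 of the 3 were higher in IBU+ACE, against 54.2% of all transcripts. All 3 were higher in IBU+ACE than in ASP+ACE, against 41.9%. Between Control and IBU+ACE none of the 3 was listed, although 48.4% of the transcripts were, and between ACE+ACE and ASP+ACE none was listed, against 6.28%. Since the members were picked from these tables, the counts are a description and nothing is read from them.

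Set against the other transcripts of their tables, the changes of Myh3 and Actc1 were small and that of Myod1 was near the middle. Among the transcripts with a value above 0 in both libraries, Myh3 ranked 34 of 44 by size of fall in ACE+ACE and 20 of 24 in ASP+ACE against Control. Between ACE+ACE and IBU+ACE it ranked 135 of 180 by size of rise and Actc1 ranked 157. Between ASP+ACE and IBU+ACE Myod1 ranked 88 of 146, Myh3 132 and Actc1 145. The median absolute log2 fold change in these 4 tables ran from 1.38 to 1.80, above the Myh3 and Actc1 values in each table that lists them.

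**Figure D2:**
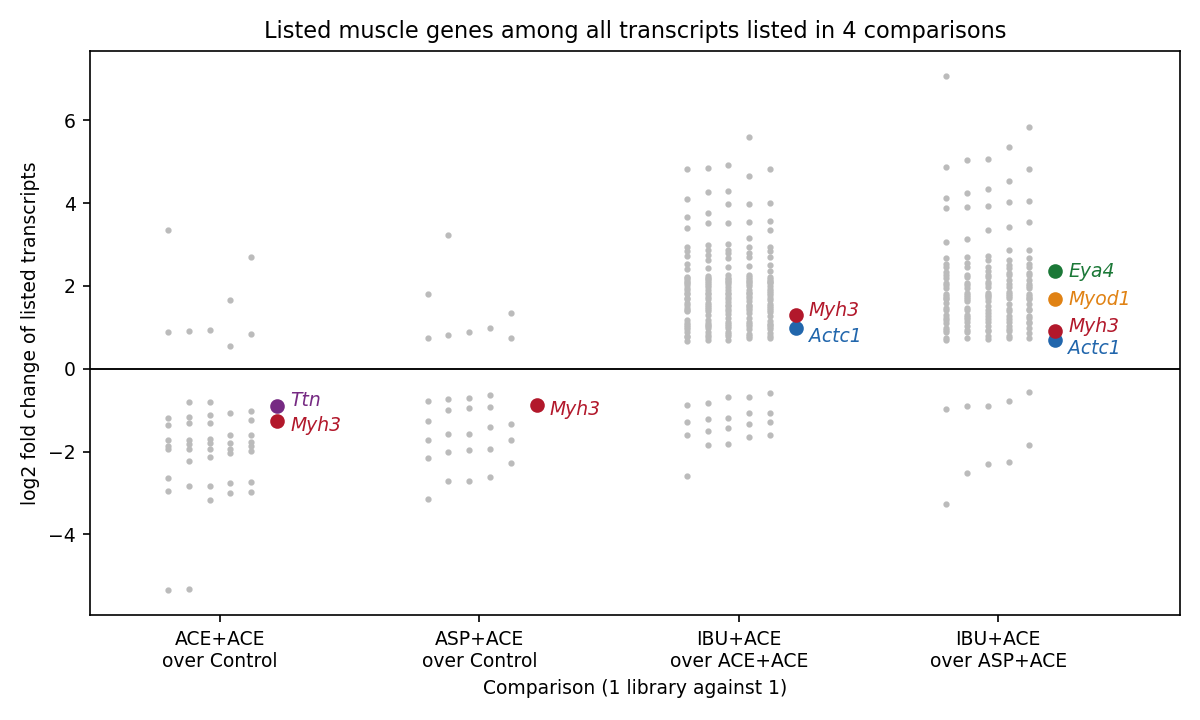
Log2 fold change (vertical axis, linear) of every transcript listed in the 4 comparisons that hold a muscle gene, 1 grey dot per transcript and a coloured, named dot for each muscle gene; transcripts listed at 0 in a library, 15, 12, 32 and 18 from left to right, have no finite value and are left out, as is 1 red cell gene. Myh3 and Actc1 lie between -1.27 and 1.29, while Myod1 and Eya4 in IBU+ACE over ASP+ACE lie at 1.67 and 2.36.

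Few other muscle genes were listed. Of 157 gene symbols, a few of them older names of the same gene, on 7 lists of muscle regulators, fusion proteins, sarcomere proteins, membrane and energy proteins, heart and smooth muscle, 5 appear in any table, the 3 members with Ttn and Eya4. Of the 23 thick filament genes Ttn, which encodes the giant spring protein titin, fell from 0.800 FPKM in Control to 0.431 FPKM in ACE+ACE, -0.89 on the log2 scale of the authors' deposited table. With Myh3, itself picked from these tables, that makes 2 of the 23 thick filament genes lower in ACE+ACE and 0 higher, in a table where 50 of 67 listed transcripts were lower. Of the 30 regulators Eya4, a transcriptional coactivator that is active in several organs besides muscle, rose from 0.315 FPKM in ASP+ACE to 1.61 FPKM in IBU+ACE, 2.36 on the log2 scale of the authors' deposited table. The levels of Ttn in ASP+ACE and IBU+ACE and of Eya4 in Control and ACE+ACE are not in any table.

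Of the 32 thin filament and Z disc genes only Actc1 was listed, and of the 20 heart genes it was again the 1 listed. None of the 10 fusion genes, the 40 membrane, calcium and energy genes or the 13 smooth muscle genes was listed. Over all 157 symbols, 2 were lower and 0 higher in ACE+ACE against Control and 1 was lower in ASP+ACE against Control. In IBU+ACE 2 were higher against ACE+ACE and 4 against ASP+ACE. The same calls held 13.1%, 7.59%, 54.2% and 41.9% of the 382 transcripts, a base of listed transcripts only. Most listed transcripts went the same way, 50 of 67, 29 of 44, 207 of 232 and 160 of 174, so no muscle trend is read. The median log2 fold changes of these muscle genes were -1.08, -0.89, 1.14 and 1.29 in the order of those comparisons. They rest on Myh3 with Ttn, Myh3 alone, Myh3 with Actc1, and the 3 members with Eya4. As the members were picked on these same values, the medians are not separate evidence of a muscle pattern. Over all transcripts listed in the same direction, with values above 0 in both libraries, the median absolute log2 fold changes were 1.81, 1.58, 1.82 and 1.80. Of 15 defining markers of skeletal muscle and myoblasts, 12, among them Myog, Myf5, Acta1 and Ckm, are in no table, so their levels could not be compared.

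Markers of other tissues were also listed, not always in the comparisons that list Myh3. For 44 limb, cartilage and skin genes, 16 transcripts were higher in IBU+ACE than in Control, 15 than in ACE+ACE and 17 than in ASP+ACE, with none lower. Col9a1 has more than 1 transcript among the 15 and among the 17, so the genes are fewer there. Over all 382 transcripts 39.5%, 54.2% and 41.9% were higher in these comparisons; that base holds only transcripts listed somewhere, as 18 of the 44 genes were, so the shares are not on 1 footing and nothing particular to the list is read from them. Between Control and ACE+ACE 0 of the 44 genes were listed, against 17.5% of all transcripts. In ASP+ACE against Control 1, Col2a1, was lower, where 7.59% of all transcripts were. The 12 genes of the list with a value in every library summed to 112 FPKM in IBU+ACE. In Control they came to 21.9 FPKM, in ACE+ACE to 19.7 FPKM and in ASP+ACE to 16.6 FPKM. Col2a1, the main cartilage collagen, had 2.92, 2.25, 1.10 and 36.3 FPKM from Control to IBU+ACE in the order of the groups above, and the homeobox gene Msx1 0.788, 0.659, 0.676 and 12.7 FPKM. Their Control sum was 19.6% of that in IBU+ACE, whereas Myh3 in Control was at 98.3% of its IBU+ACE level. The part of this tissue in the muscle gene values was not tested.

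Liver and red cell genes also differed between these libraries. Of 19 such genes 10 fell in ACE+ACE and 5 in ASP+ACE against Control, and 8 rose from ACE+ACE to IBU+ACE, where 1, Hbb-y, fell. In IBU+ACE against Control 3 fell, the embryonic globins Hbb-y, Hbb-bh1 and Hba-x, and 0 rose. The same calls held 13.1%, 7.59%, 54.2%, 6.54% and 8.9% of all transcripts, in that order, and 13 of the 19 genes were listed somewhere. Besides these, 4 were higher in ASP+ACE than in ACE+ACE, where Myh3 had no call and 14 of the 382 transcripts were higher. From ASP+ACE to IBU+ACE 3 rose, against 41.9% of all transcripts. The 7 with a value in every library summed to 3236, 2416, 1948 and 1792 FPKM from Control to IBU+ACE, most of it Hbb-y, and this sum was lowest in IBU+ACE, unlike Myh3. Without globins, a choice made after the values were seen, the 6 of them with a value in every library summed to 224 FPKM for Control and 235 for IBU+ACE. They summed to 65.6 FPKM in ACE+ACE and 139 in ASP+ACE, high and low in the same libraries as Myh3. Afp alone had 130, 34.2, 67.8 and 113 FPKM from Control to IBU+ACE. Hbb-y, an embryonic beta-globin, had 3012, 2350.3, 1809 and 1557 FPKM, and Hbb-bt, an adult one, had 595, 293 and 345 FPKM in Control, ACE+ACE and ASP+ACE. The part of liver or blood in the muscle gene values was not tested. None of the 12 mesonephros and kidney genes was listed. Of 13 genes on the nerve and neural crest list 2 were listed. Chgb fell against Control in all 3 exposed libraries, from 0.719 to 0.115, 0.0809 and 0.0759 FPKM. Sox2, whose deposited locus overlaps 14 other annotated genes, fell from 11.97 to 6.39 FPKM in IBU+ACE. Over all transcripts 13.1%, 7.59% and 8.9% were lower than Control in ACE+ACE, ASP+ACE and IBU+ACE. No change of nerve tissue is read from these genes.

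**Figure D3:**
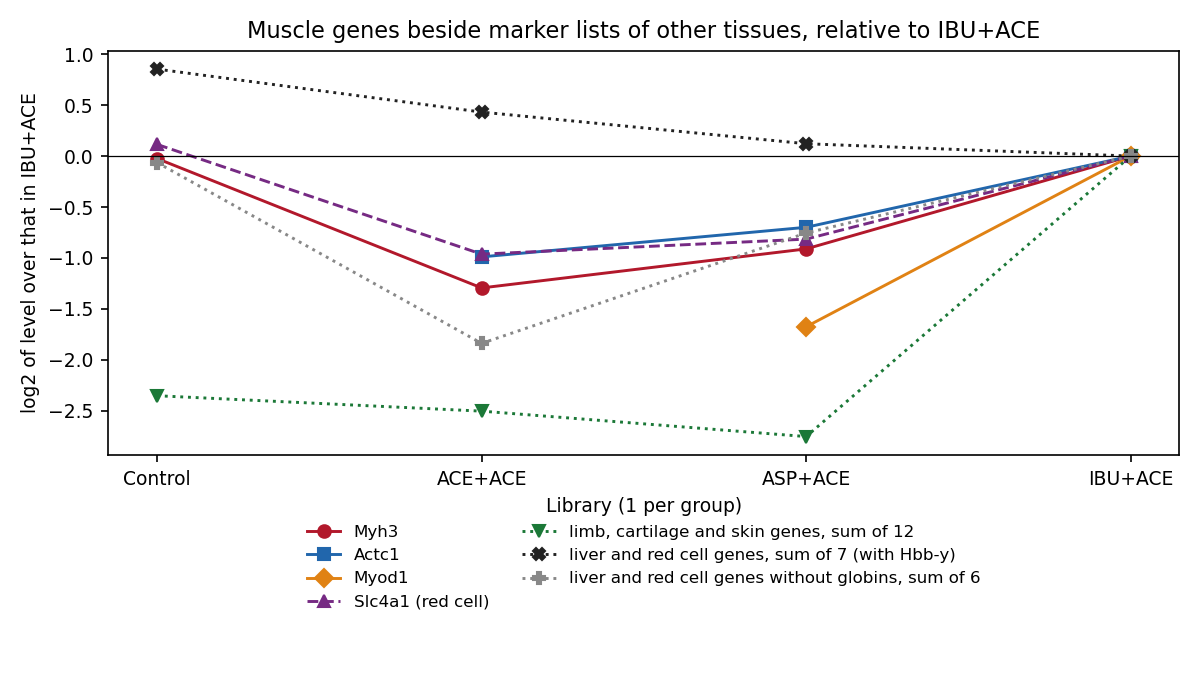
Log2 of each level over its own level in IBU+ACE (vertical axis, linear) in the 4 libraries; solid lines are the 3 members where a value exists, the dashed line is the red cell gene Slc4a1, and dotted lines are summed levels of 12 limb, cartilage and skin genes, of 7 liver and red cell genes, and of 6 of those without globins. In Control Myh3 is at -0.02, the limb sum at -2.35, the liver and red cell sum at 0.85 and the sum without globins, chosen after the values were seen, at -0.06.

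The genes most like Myh3 over the 4 libraries were sought by the root mean square difference of log2 levels, each gene centred on its own mean, among 90 named transcripts with 4 values above 0. Slc4a1, the anion exchanger of the red cell membrane, was nearest, at a difference of 0.12, with 15.5 FPKM for Control and 14.3 for IBU+ACE above 7.35 FPKM in ACE+ACE and 8.15 in ASP+ACE. Next came the liver genes Apoa1 at 0.24 and Afp at 0.26, then Gas1, a hedgehog co-receptor, at 0.34 and Gdf10, a growth factor of the BMP family, at 0.35. With 4 points per gene this ordering is a description. It changes when 1 FPKM is added to each level, where Slc4a1 is 1 of the 5 nearest in both orderings and the other 4 differ.

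Actc1 was compared over 3 libraries with 108 transcripts. Slc4a1 was again nearest, at 0.06, followed by Gm26778 at 0.09, the Wnt antagonist gene Sfrp2 at 0.10, the kinase gene Plk2 at 0.12 and Gas1 at 0.13. Myh3 came next, also at 0.13, and with 1 FPKM added it was the nearest, at 0.03. The candidates are transcripts called between some libraries, so these neighbours come from a preselected set. Of 21 testis cell markers only Sox9 and Cst9 were listed, Sox9 with 5.98, 5.97, 5.22 and 10.04 FPKM from Control to IBU+ACE and Cst9 with 63.3 FPKM for Control and 114 for IBU+ACE. Sox9 is also on the cartilage list, so these markers offer little to check the labelled tissue against. Xist, the RNA of X inactivation in female cells, was higher in IBU+ACE. Its log2 fold changes were 3.54 over Control, 3.97 over ACE+ACE and 4.06 over ASP+ACE. The sex of the cells in that library, on which every call of Actc1 and Myod1 rests, was not tested.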

How the data were processed

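Per the labels' protocols, total RNA without ribosomal RNA was made into stranded libraries and read from both ends. Per the submitters' processing notes, tools used were TopHat2 2.1 and Bowtie2 2.2.6, Cufflinks 2.2.1, SAMtools 1.3, bcl2fastq 2.17 and FastQC, on GRCm38; no settings are named. The authors deposited 6 pairwise tables with 2 values per transcript, their log2 fold change, and p- and q-values (p-value, q-value); both levels are read as FPKM from the Cufflinks layout, as the headers name no unit. All 726 rows are marked significant, and 0 values disagreed between tables. Total counts per library were not used here, so depth is unknown.

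Tables were read with Python 3.11.15 and numpy 2.4.6 (decimal commas turned into points; checked on simulated tables) and plotted with matplotlib 3.10.9. Values were combined over tables, giving 9 of 12 possible member levels. Recomputed log2 fold changes differed from the deposited ones by at most 1.09e-05. No test was run, since each group has 1 library. Loci start 1 after the deposited start and were set against GENCODE annotation of GRCm38; whether counting used strand is not stated in them or in the labels. The members and the 12 gene lists were chosen with earlier results of these data known. Named are the members, every listed gene of the 7 muscle lists, the 5 nearest genes of a member with 3 or more levels, and the 2 highest genes of each other list. Outside that rule, 4 unlisted markers, Hbb-bh1, Hba-x and Xist were named after the tables were seen, and the sum without globins was also added then. 1 gene of the red cell list is not reported here. Alternatives were pseudocounts of 1 and 0.1 FPKM, a minimum of 1 for the size of the log2 fold change, a level of at least 1 FPKM, a q of 0.01 or less, and named transcripts alone.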

Additional observations from a re-analysis of the deposited data

Results flagged for a closer look

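The log2 ratio of Myh3 over Control was negative in ACE+ACE and ASP+ACE, where the authors listed it as lower, and 0.02 in IBU+ACE, which is close to 0 and was not listed. The IBU+ACE ratio exceeded that of ACE+ACE by 1.29 and that of ASP+ACE by 0.91 on the log2 scale. It was marked because the ratios differ between groups. With 1 library per group the difference was not tested, and no opposite change was called.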

How the results depend on the processing

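All 7 listed fold changes of the members kept their direction with a pseudocount, as they must when the same amount is added to both values. Only their sizes could move. With 1 FPKM added, the log2 fold changes of Myh3 were -0.94 (ACE+ACE over Control), -0.68 (ASP+ACE over Control), 0.96 (IBU+ACE over ACE+ACE) and 0.70 (IBU+ACE over ASP+ACE), those of Actc1 were 0.89 and 0.63 (IBU+ACE over ACE+ACE and over ASP+ACE), and that of Myod1 was 0.66. With 0.1 FPKM added they were -1.23, -0.86, 1.25 and 0.88 for Myh3, 0.98 and 0.69 for Actc1, and 1.44 for Myod1, in the same order. Myod1 moved most, since its levels are near the amount added. Requiring a log2 fold change of 1 or more in size kept 3 of the 7 member rows and 4 of the 9 rows of muscle genes; a higher level of at least 1 FPKM kept 7 and 8. A q of 0.01 or less kept 0 of both, since every row has the same q. With 1 FPKM added, 1 of the 5 nearest genes was shared for Myh3 and 1 for Actc1. Among named transcripts alone the share listed ran from 6.67% to 67.5% over the 6 tables, against 6.28% to 60.7% among all. No paired analysis was possible because each group has 1 library. Depth is unknown, so neither the limit of detection nor the counting error of any level can be given.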
